A study of Arabidopsis thaliana with 21 samples.

Results

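The CAMTA genes of Arabidopsis thaliana encode calmodulin-binding transcription activators, a family of 6 genes, of which CAMTA1, CAMTA2 and CAMTA3 are mutated in combinations in this series. The members described here are the remaining loci of the family, AT1G67310, AT3G16940 and AT4G16150. They were chosen by locus, as every probe set whose single named gene was one of these loci, which gave 3 probe sets (264999_at, 257883_at and 245480_at), 1 for each gene, of 22810 on the array, where 13286 genes have a named probe set. RefSeq lists all 3 as protein-coding genes with no symbol beyond the locus name, so they are called by locus.

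CAMTA proteins bind DNA through an N-terminal CG-1 domain and bind calmodulin, the calcium sensor, through a C-terminal region, and so couple calcium signals to transcription. In Arabidopsis leaves CAMTA1, CAMTA2 and CAMTA3 are known to promote the early expression of CBF cold-response genes and to hold back salicylic acid immunity at warm temperature. Cold itself raises cytosolic calcium, and a question that the mutants pose is whether the family members left intact change in level when the others are lost.

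Transcript levels were measured on 21 arrays from the entire aerial part of soil-grown plants of the Col-0 ecotype, kept at 22 °C for 3 weeks with 12 h of light a day. The 7 groups held 3 biological replicates each. In the warm, at 22 °C, 5 genotypes were sampled, namely wild type (WT), 3 double mutants (camta1/2, camta1/3, camta2/3) and 1 triple mutant (camta1/2/3). The cold treatment lasted 24 h at 4 °C and was given to WT and camta1/2/3. No double mutant was sampled in the cold. The labels do not name the alleles or say how many plants an array stands for, so p-values measure the spread between these samples. Of the 3 mutated CAMTA genes 0 had a probe set named here, so the genotypes were not checked on the arrays.

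Values are the deposited log2 levels, which ran from 2.17 to 14.27 with array medians of 4.86 to 5.01, and arrays of 1 group correlated at 0.984 to 0.995. In bulk tissue a lower level from fewer expressing cells and from less RNA per cell cannot be told apart. The 3 measured of 6 listed leaf markers were high, with Rubisco activase (RCA) at group means of 12.73 to 13.66, as the labelled tissue would have. Root and flower markers should be low in such tissue. Of 4 listed root markers 1 was measured, PYK10, a root and hypocotyl beta-glucosidase. Its group means of 6.40 to 8.83 lay above the array medians, so it was not low, for a cause that was not tested. Of 4 flower markers 0 were measured. As a sign of RNA integrity, the log2 signal of the actin control at the 3′ end minus that at the 5′ end (the actin difference, wider in more degraded RNA) was compared between groups, and it is given below beside the results it moves with.

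AT1G67310 was lowest in WT and camta1/2 in the warm and highest in the triple mutant in the cold. In WT at 22 °C the 3 arrays read 6.44, 6.38 and 6.32, and in camta1/2 they read 6.14, 6.28 and 6.43. In camta1/3 they read 6.58, 6.70 and 6.49, in camta2/3 6.76, 6.98 and 6.95, and in camta1/2/3 at 22 °C 7.46, 7.67 and 7.58. At 4 °C they read 7.03, 8.17 and 7.49 in WT and 7.93, 7.86 and 8.24 in camta1/2/3. The warm groups with an intact CAMTA3 lay together at the bottom, and the warm groups without it each lay wholly above WT. Lying wholly above WT was shared by 7.11% of all probe sets in camta1/3, 10.2% in camta2/3 and 15% in camta1/2/3. Of these differences only that of camta1/2/3 passed the threshold given below. Ordered by group mean the levels ran from camta1/2 (6.28 ± 0.15, SD, n = 3) through WT (6.38 ± 0.06), camta1/3 (6.59 ± 0.11), camta2/3 (6.90 ± 0.12), WT at 4 °C (7.56 ± 0.57) and camta1/2/3 at 22 °C (7.57 ± 0.11) to camta1/2/3 at 4 °C (8.01 ± 0.20). Of the neighbours in this order camta1/2 overlapped WT at 22 °C, and WT at 4 °C overlapped camta1/2/3 at 22 °C. The arrays of WT at 4 °C, at 7.03 to 8.17, also overlapped those of camta1/2/3 at 4 °C, at 7.86 to 8.24.

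AT3G16940 covered a narrower range. Its arrays read 6.57, 6.39 and 6.63 in WT at 22 °C, 6.33, 6.20 and 6.67 in camta1/2, 6.31, 6.93 and 6.68 in camta1/3, and 6.66, 6.66 and 6.63 in camta2/3. In camta1/2/3 at 22 °C they read 6.87, 7.06 and 7.08. At 4 °C they read 7.58, 7.28 and 7.45 in WT and 7.21, 6.77 and 7.63 in camta1/2/3. The 4 lowest groups, camta1/2 (6.40 ± 0.24), WT (6.53 ± 0.12), camta1/3 (6.64 ± 0.31) and camta2/3 (6.65 ± 0.02), each overlapped their neighbour. The next group, camta1/2/3 at 22 °C (7.0 ± 0.12), lay wholly above camta2/3, as for 9.14% of all probe sets. It did overlap camta1/3, whose highest array, 6.93, lay above its lowest, 6.87, so no gap parted the lower groups from the upper ones. At the top camta1/2/3 at 4 °C (7.20 ± 0.43) and WT at 4 °C (7.44 ± 0.15) overlapped again. The highest group mean was therefore that of WT in the cold, where for AT1G67310 it was that of the triple mutant in the cold. Neither gene was called between these 2 groups, and the highest single array of AT3G16940, 7.63, was of the cold triple mutant.

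AT4G16150 hardly moved, and its values carried little resolution. The same deposited value, 6.14, stood on 13 of the 21 arrays, among them all 3 of camta1/2/3 at 22 °C and all 3 at 4 °C. The other arrays read between 5.83 and 6.43, with WT at 22 °C at 6.14, 5.88 and 5.83 and WT at 4 °C at 6.43, 5.94 and 6.17, and all neighbouring groups overlapped. Of the 3227 probe sets whose mean lay within 0.5 of this one, 0.713% held a single value on as many arrays, against 26.2% of all probe sets tested. The cause of the repeated value was not tested, and differences of AT4G16150 below rest on the 8 arrays that departed from it. AT1G67310 had 21 distinct values and AT3G16940 19.

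**Figure D1:**
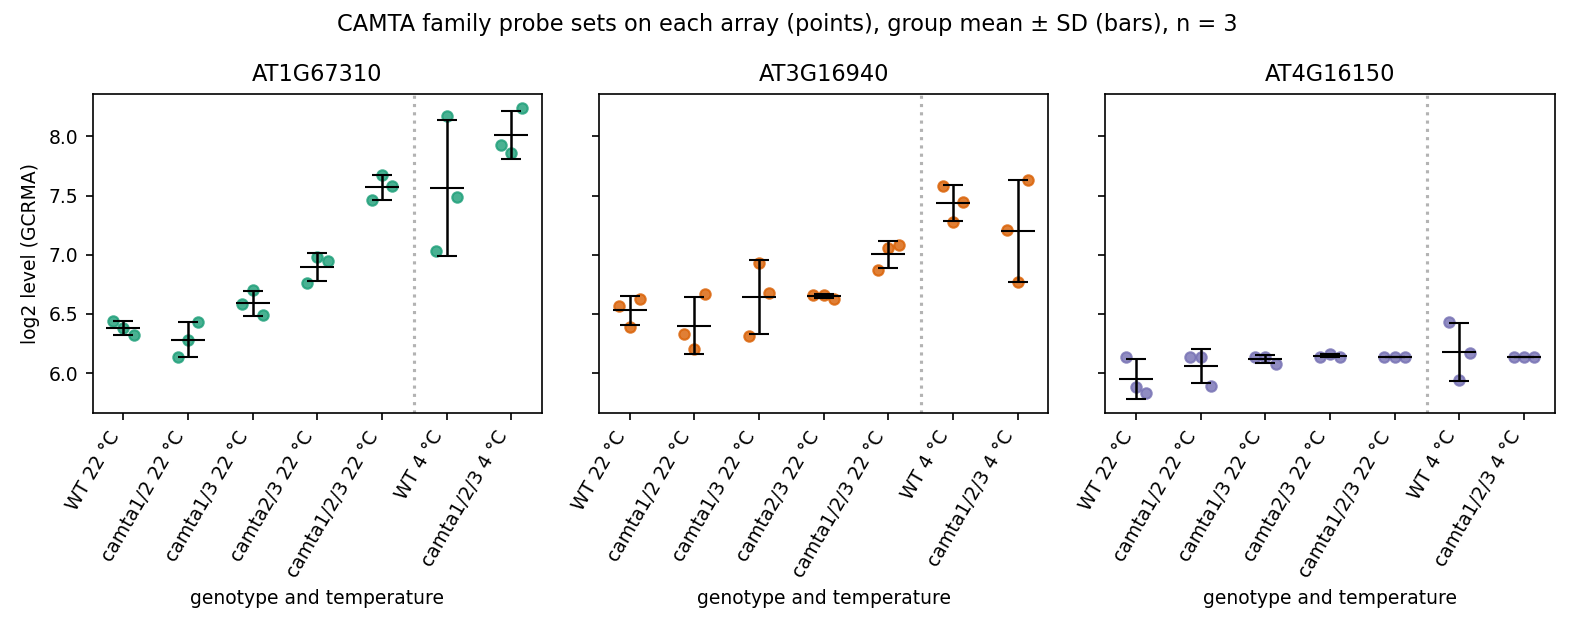
Deposited log2 levels (y axis) of the 3 CAMTA family probe sets on each array, by genotype and temperature (x axis); points are arrays, bars are group means ± SD (n = 3), and the dotted line parts 22 °C from 4 °C. AT1G67310 stands at 7.57 ± 0.11 in warm camta1/2/3 against 6.38 ± 0.06 in warm WT, and AT4G16150 stays between 5.83 and 6.43 throughout.

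The first comparison asked how the 3 genes answered 24 h at 4 °C in WT. Both AT1G67310 and AT3G16940 rose, and AT4G16150 did not pass. AT1G67310 rose 2.27-fold, by 1.18 ± 0.20 (log2 difference ± SE; limma, adjusted p = 0.000386), and AT3G16940 1.87-fold, by 0.91 ± 0.19 (limma, adjusted p = 0.00226). For each of these the 3 cold arrays lay above the 3 warm ones, as for 13.4% of all probe sets. AT4G16150 differed by 0.23, with a 95% interval of 0.02 to 0.44 (limma, adjusted p = 0.121). The words rise and fall are kept for an adjusted p, over all 22746 probe sets tested, of under 0.05, a threshold that 23.1% of the probe sets passed in this comparison. The tissue markers fell in cold WT: the 3 measured leaf markers by 2.17 (LHCB4.2), 1.01 (PRK) and 0.80 (RCA), and the root marker PYK10 by 1.57 (limma, adjusted p = 2.77e-07, 0.0176, 0.000482 and 0.00167), and their part in the result was not tested.

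The rise of AT1G67310 was uneven, since the cold WT arrays spread over 7.03 to 8.17, and when the fit held no arrays but the 6 compared, its call was lost at the same difference (limma, adjusted p = 0.0811). AT4G16150 passed without WT replicate 1 at 22 °C (0.33, adjusted p = 0.0339) or without WT replicate 2 at 4 °C (0.35, adjusted p = 0.0128). The spread of AT1G67310 among the cold WT arrays ran opposite to that of AT4G16150: replicate 2 had the highest value of the first and the lowest of the second, and replicate 1 the reverse. Replicate 2 also had the widest actin difference of this group, 2.71 against 1.57 and 1.71, and its part in these values was not tested.

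The same question in the triple mutant gave no call for any member. AT1G67310 went from 7.57 ± 0.11 to 8.01 ± 0.20, a difference of 0.44 with a 95% interval of 0.02 to 0.86 (limma, adjusted p = 0.135), although the cold arrays lay wholly above the warm ones. Being wholly higher was shared by 13.4% of all probe sets, and 22.2% were called in either direction. AT3G16940 differed by 0.20, with an interval of −0.20 to 0.60 (limma, adjusted p = 0.542), and AT4G16150 by 0.00, since all 6 arrays held the repeated value.

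In AT3G16940 the cold triple mutant arrays spread from 6.77 to 7.63. The lowest, replicate 2, was also the array with the widest actin difference in the series, 4.25, against 2.67 for replicate 1 and 2.41 for replicate 3, the latter with the highest level of this gene. Without replicate 2 at 4 °C the cold difference was 0.42 (limma, adjusted p = 0.118), without replicate 3 it turned to −0.01 (limma, adjusted p = 1), and with the actin difference as a covariate it was 0.27 (limma, adjusted p = 0.197).

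Whether the cold response differed between the genotypes was tested as an interaction. The response of AT1G67310 was smaller in camta1/2/3 than in WT by 0.74 ± 0.28 (n = 3 arrays in each of 4 groups), with a 95% interval from −1.34 to −0.15, and that of AT3G16940 by 0.71 ± 0.27, with an interval from −1.27 to −0.14. Neither passed over all probe sets (limma, adjusted p = 0.242 and 0.244), of which 1.97% were called. For AT4G16150 the interval was −0.53 to 0.07 (limma, adjusted p = 0.545). In the warm the triple mutant mean was above that of WT for both genes, with a call for AT1G67310 and without one for AT3G16940. In the cold it was above that of WT for AT1G67310 and below it for AT3G16940, in both cases without a call.

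The interaction of AT1G67310 rested on which cold WT arrays were used. Without WT replicate 1 at 4 °C it was −1.01 and called (limma, adjusted p = 0.0342), and without WT replicate 2 at 4 °C it was −0.44.

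**Figure D2:**
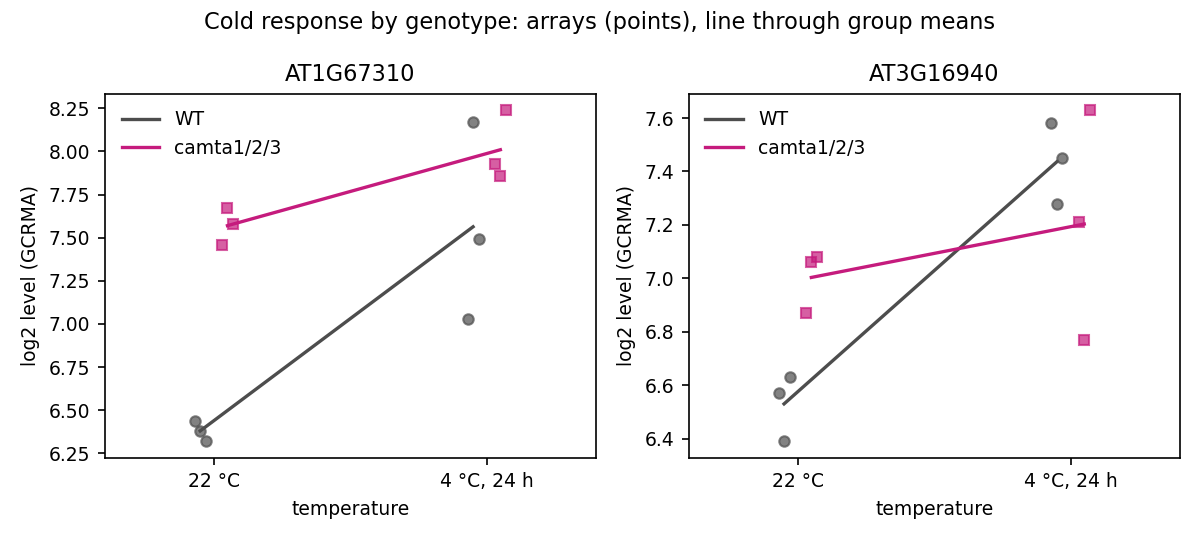
Log2 levels (y axis) of AT1G67310 and AT3G16940 at 22 °C and after 24 h at 4 °C (x axis) in WT (circles) and camta1/2/3 (squares); points are arrays and lines join the group means. WT rises by 1.18 and 0.91, and the triple mutant has higher warm means, for AT3G16940 without a call, and changes by 0.44 and 0.20, without a call.

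At 4 °C none of the 3 genes passed between camta1/2/3 and WT, a comparison in which 21.1% of probe sets were called. AT1G67310 stood 0.45 higher in the mutant, with an interval of 0.03 to 0.87 (limma, adjusted p = 0.130), AT3G16940 was at −0.23, with an interval of −0.63 to 0.17 (limma, adjusted p = 0.444), and AT4G16150 at −0.04, with an interval of −0.25 to 0.17 (limma, adjusted p = 0.899). Without WT replicate 2, the array at 8.17, the difference of AT1G67310 was 0.75 and called (limma, adjusted p = 0.00139), and without WT replicate 1, the array at 7.03, it was 0.18 (limma, adjusted p = 0.546). That of AT3G16940 ran from −0.45 without camta1/2/3 replicate 3 to −0.02 without camta1/2/3 replicate 2, in both cases without a call. The actin difference was 3.11 ± 1.0 in the cold mutant and 2.00 ± 0.62 in cold WT, and with it as a covariate the difference of AT3G16940 turned to 0.16 (limma, adjusted p = 0.718).

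At 22 °C the question was whether the intact family members stood higher in the mutants. In the triple mutant AT1G67310 was 2.28-fold higher than in WT, by 1.19 ± 0.20 (limma, adjusted p = 0.00039), and all 3 mutant arrays lay above all 3 WT arrays. AT3G16940 was 1.39-fold higher, by 0.47, with an interval of 0.07 to 0.87, and its arrays did not overlap either, but it did not pass (limma, adjusted p = 0.0858). AT4G16150 differed by 0.19, with an interval of −0.02 to 0.40 (limma, adjusted p = 0.212). In this comparison 23.5% of probe sets were called, and 15% lay wholly above WT, so 1 called member of 3 is near the share among all probe sets.

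The difference of AT1G67310 held its call in each of the 6 fits without 1 array, at 1.14 to 1.25. The actin difference was 2.90 ± 0.13 in the warm triple mutant and 2.23 ± 0.21 in warm WT. With it as a covariate AT1G67310 was at 1.10 (limma, adjusted p = 0.00244), and AT3G16940 was called, at 0.71 (limma, adjusted p = 0.00418); AT3G16940 was also called with only the 6 arrays compared (limma, adjusted p = 0.0394). PYK10, the 1 root marker measured, stood at 8.83 ± 0.43 in the triple mutant and 7.97 ± 0.48 in WT, without a call (limma, adjusted p = 0.0585). The leaf marker LHCB4.2 was lower in the triple mutant, at −0.49 (limma, adjusted p = 0.0468). RCA and PRK were not called (limma, adjusted p = 0.167 and 0.754). The part of these markers in the result was not tested.

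For AT1G67310 and AT3G16940 the double mutants differed less from WT than the triple mutant did, and 0 of the 3 genes were called in any double mutant. In camta2/3 AT1G67310 was 1.43-fold higher than in WT, by 0.52, with an interval of 0.10 to 0.94 (limma, adjusted p = 0.122), with no overlap between the groups. With only the 6 arrays compared it was called (limma, adjusted p = 0.0344). In camta1/3 it was 0.21 higher, with an interval of −0.21 to 0.63 (limma, adjusted p = 0.831), again with no overlap, and in camta1/2 it was at −0.10, with an interval of −0.52 to 0.32 (limma, adjusted p = 1). Lying wholly above WT was shared by 10.2% of all probe sets in camta2/3 and 7.11% in camta1/3, and the shares called were 10.1% and 2.21%, against 0.163% in camta1/2. The actin difference followed a like order, at 2.09 ± 0.05 in camta1/2, 2.48 ± 0.26 in camta1/3 and 2.62 ± 0.16 in camta2/3. With it as a covariate AT1G67310 was at 0.46 in camta2/3, 0.18 in camta1/3 and −0.08 in camta1/2, without a call. Its part in these differences was not tested.

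AT3G16940 differed from WT by −0.13 in camta1/2, 0.11 in camta1/3 and 0.12 in camta2/3, and the intervals reached from −0.53 to 0.52 at the widest. AT4G16150 differed by 0.11, 0.17 and 0.20, with its highest mean among the double mutants in camta2/3 (6.15 ± 0.01). For both genes all 3 double mutants overlapped WT. The 3 comparisons share the WT arrays, of which replicates 2 and 3 had the lowest values of AT4G16150 in the series.

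**Figure D3:**
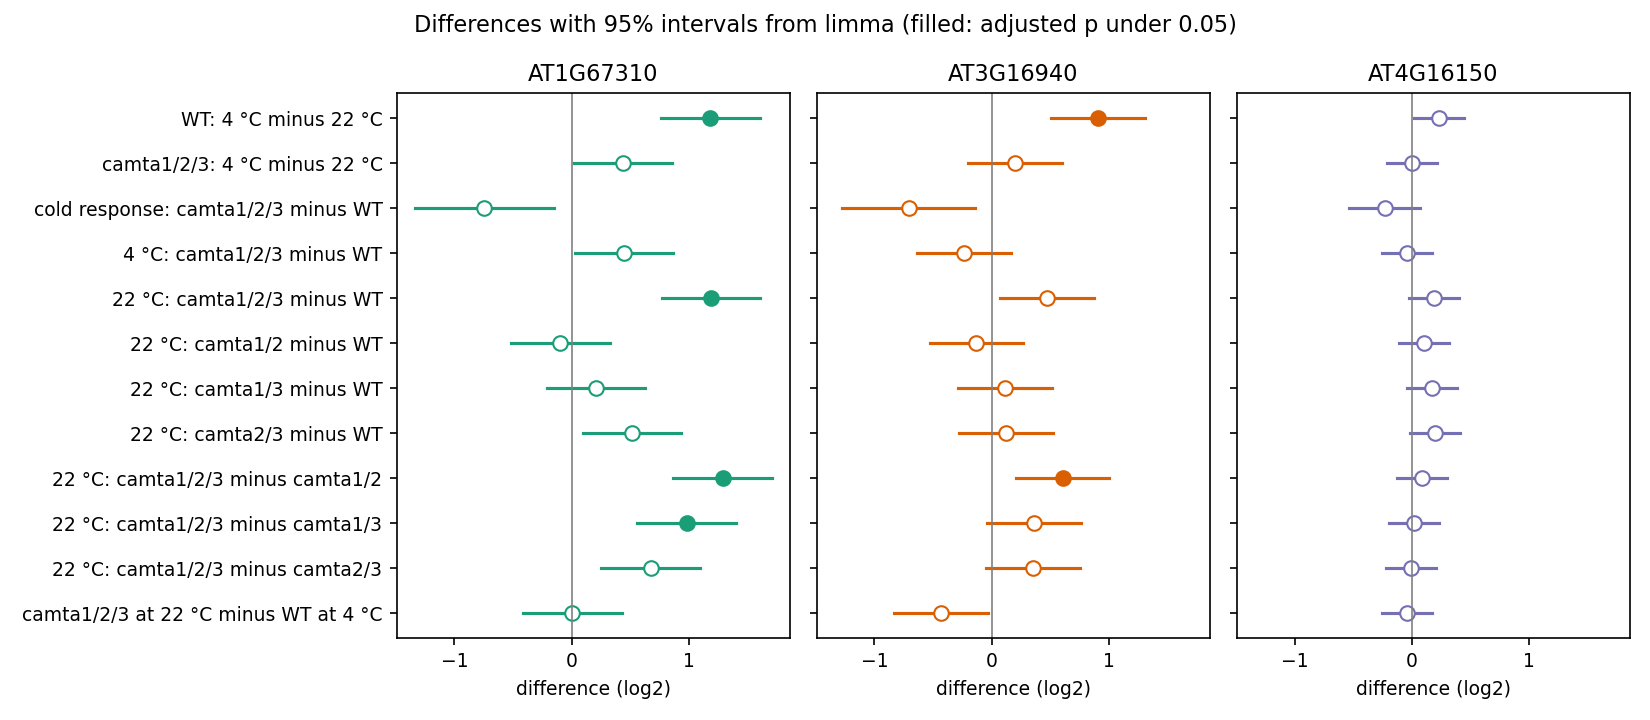
Log2 differences (x axis, with 95% intervals from limma) of the 3 genes in each of the 12 comparisons (y axis); filled points had an adjusted p under 0.05. AT1G67310 is filled in 4 comparisons, AT3G16940 in 2 and AT4G16150 in 0.

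Comparisons of the triple mutant with each double mutant at 22 °C were added after the data were seen. AT1G67310 stood higher in the triple mutant than in camta1/2, by 1.29 ± 0.20 (limma, adjusted p = 0.000439), and than in camta1/3, by 0.98 ± 0.20 (limma, adjusted p = 0.00536). Against camta2/3 it was 0.67 higher, with an interval of 0.25 to 1.09 and no overlap, and did not pass (limma, adjusted p = 0.115). Lying wholly above camta2/3 was shared by 9.14% of all probe sets. The shares of probe sets called were 15.5%, 9.57% and 1.43%, in the same order. PYK10 was also higher in the triple mutant than in camta1/2, camta1/3 and camta2/3, by 1.64, 1.26 and 1.39 (limma, adjusted p = 0.00219, 0.0186 and 0.0387), and the actin difference was 2.90 in the triple mutant against 2.09, 2.48 and 2.62, and their part in these results was not tested. By group means the triple mutant differed most from the double mutant with an intact CAMTA3 and least from the one with an intact CAMTA1, though these gaps were not tested against each other.

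AT3G16940 was higher in the triple mutant than in camta1/2, by 0.60 ± 0.19 (limma, adjusted p = 0.0406). That call was lost in 5 of 6 fits without 1 array, all but the fit without camta1/2 replicate 3, up to an adjusted p of 0.14 without camta1/2 replicate 2, and also with quantile normalization (0.0618) and with only the 6 arrays compared (0.0875). Against camta1/3 and camta2/3 it was 0.36 and 0.35 higher (limma, adjusted p = 0.291 and 0.490). AT4G16150 differed from the double mutants by −0.01 to 0.08, with no call.

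The warm triple mutant was also set against WT in the cold, again as a comparison added after the data were seen. AT1G67310 had nearly the same mean in both, 7.57 and 7.56, and the 95% interval of the difference was −0.41 to 0.43 (limma, adjusted p = 1). AT3G16940 was at −0.43, with an interval of −0.83 to −0.03 and no overlap (limma, adjusted p = 0.0974), and AT4G16150 at −0.04 (limma, adjusted p = 0.886). This comparison called 31.7% of the probe sets, and 18.3% lay wholly lower in the warm triple mutant. The difference of AT3G16940 was called with each array centred on its median (−0.52, adjusted p = 0.0353) and with only the 6 arrays compared (adjusted p = 0.0463).

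Between arrays, AT1G67310 and AT3G16940 correlated at Pearson r = 0.77 over the 21 arrays, which share their groups, and at 0.91 over the 7 group means. After the group means were taken off, r was 0.11. The relation was thus seen between groups. With few replicates a group this r is imprecise, and whether AT1G67310 and AT3G16940 also varied together among replicates was not tested. AT1G67310 and AT4G16150 had r = 0.21 over the arrays and −0.66 after the group means were taken off; the cold WT arrays are among those with opposite order.

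The genes with the closest patterns over the 21 arrays were listed for each member. For AT1G67310 they were AT3G15430 (r = 0.93), AT2G33730 (r = 0.92) and AT5G14940 (r = 0.92). AT3G15430 went from 6.77 ± 0.12 in warm WT to 8.01 ± 0.26 in cold WT, and stood at 7.70 ± 0.06 in the warm and 8.67 ± 0.16 in the cold triple mutant. AT5G14940 had the widest range of these, from 5.34 ± 0.43 in warm WT to 8.09 ± 0.05 in the cold triple mutant. For AT3G16940 they were AT5G63990 (r = 0.87), ATCOAE (AT2G27490, r = 0.86), named for a coenzyme A biosynthesis kinase, and AT3G58510 (r = 0.86). ATCOAE stood at 5.94 ± 0.09 and 6.72 ± 0.11 in WT, warm and cold, and at 6.22 ± 0.19 and 6.63 ± 0.24 in the triple mutant. For AT4G16150 the closest gene, AT1G71840, reached only r = 0.74.

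Other genes of calcium signalling were taken from a list of 17 calmodulin and calmodulin-like loci, of which 6 were measured by a named probe set. In WT at 4 °C 2 of the 6 rose and 0 fell, where 23.1% of all probe sets were called, with a median difference of 0.13 against 0 over all probe sets. CML38, a calmodulin-like protein gene, went from 4.94 ± 0.61 to 6.06 ± 0.10 and CML37 from 3.03 ± 0.39 to 3.82 ± 0.23. Both calls were lost with only the 6 arrays compared (limma, adjusted p = 0.11 and 0.116), that of CML38 also in 5 of 6 fits without 1 array, all but the fit without WT replicate 1 at 22 °C (up to 0.128), and that of CML37 in the fits without WT replicate 2 or 3 at 22 °C or WT replicate 3 at 4 °C (up to 0.0711). In the warm triple mutant 3 of the 6 stood higher than in WT and 0 lower, where 23.5% of all probe sets were called, with a median of 0.53 against 0. AT2G41090 was at 12.22 ± 0.26 against 10.80 ± 0.44, CML43 at 3.74 ± 0.17 against 2.41 ± 0.32 and CML37 at 4.16 ± 0.29 against 3.03 ± 0.39, the last without a call when only the 6 arrays were fitted (limma, adjusted p = 0.0595). Levels near 3 or below lie close to the low end of the scale, where differences are less certain.

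CML37 was the 1 gene of the 6 called in the interaction, against 1.97% of all probe sets, and it gained 1.82 ± 0.31 more in camta1/2/3 than in WT (limma, adjusted p = 0.00615) and reached 6.77 ± 0.04 in the cold triple mutant. Its sign was opposite to those of AT1G67310 and AT3G16940. In the double mutants 0 of the 6 were called in camta1/2, 1 in camta1/3 and 2 in camta2/3, all as higher, against 0.163%, 2.21% and 10.1% of all probe sets. The call in camta1/3, AT2G41090, was lost with only the 6 arrays compared (limma, adjusted p = 0.329) and without WT replicate 2 or 3 or camta1/3 replicate 2 or 3 (up to 0.0881). Both calls in camta2/3 were lost with only the 6 arrays compared, at adjusted p = 0.0519 for AT2G41090 and 0.171 for CML37 (limma), and that of CML37 also without WT replicate 2 or 3 or camta2/3 replicate 1 (up to 0.0624).

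In the cold the triple mutant had 1 of the 6 higher than in the warm, CML37, and 1 lower, AT2G41090, where 22.2% of all probe sets were called. At 4 °C 3 of the 6, AT2G41090, CML37 and CML43, stood higher in the triple mutant than in WT, where 21.1% were called. With only the 6 arrays compared the calls of AT2G41090 were lost in both (limma, adjusted p = 0.0625 and 0.0943), as was that of CML43 (0.0554), and at 4 °C that of AT2G41090 was also lost without WT replicate 3 or camta1/2/3 replicate 1 or 3 (up to 0.0745).

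A list of 11 loci of calmodulin-binding factors, the mutated CAMTA genes and CBP60-type loci, had 5 measured members. In the warm AT5G57580 stood at 5.92 ± 0.22 in WT and 6.24 ± 0.42 in camta1/2. It stood at 6.62 ± 0.41 in camta1/3, at 6.83 ± 0.14 in camta2/3 and at 7.25 ± 0.25 in camta1/2/3. The difference of the triple mutant from WT was 1.34 ± 0.23 (limma, adjusted p = 0.000544), and that of camta2/3 was called too (0.91 ± 0.23, limma, adjusted p = 0.0196), though not without WT replicate 3 at 22 °C (0.0927) or camta2/3 replicate 1 or 3 (0.0742 and 0.0623). In cold WT it stood at 5.93 ± 0.31. AT4G31000 went the other way, from 3.39 ± 0.44 in warm WT to 2.46 ± 0.19 in cold WT and 2.26 ± 0.06 in the warm triple mutant, levels near the low end of the scale, and its fall in the cold was not called with only the 6 arrays compared (limma, adjusted p = 0.0923). Of the 5, 0 rose and 1 fell in cold WT (median 0.01 against 0), 1 was higher and 1 lower in the warm triple mutant (median −0.02 against 0), and 0 were called in the interaction, where the shares of all probe sets called were 23.1%, 23.5% and 1.97%.

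Of 19 loci listed as CAMTA targets and partners 2 were measured, the zinc finger gene STZ and the cold-regulated gene COR15A. STZ rose in cold WT and was higher in the warm triple mutant, by 2.30 ± 0.42 and 2.33 ± 0.42 (limma, adjusted p = 0.000833 and 0.000738, and 0.0583 and 0.0509 with only the 6 arrays compared). COR15A rose in cold WT, by 3.07 ± 0.56, and was lower in the warm triple mutant, at −3.92 ± 0.56 (limma, adjusted p = 0.000862 and 0.000119). In the interaction COR15A was called, at 4.15 ± 0.80 (limma, adjusted p = 0.0129), and STZ was not, at −0.67 ± 0.59 (limma, adjusted p = 0.693). The shares of all probe sets called in cold WT, the warm triple mutant and the interaction were 23.1%, 23.5% and 1.97%.

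**Figure D4:**
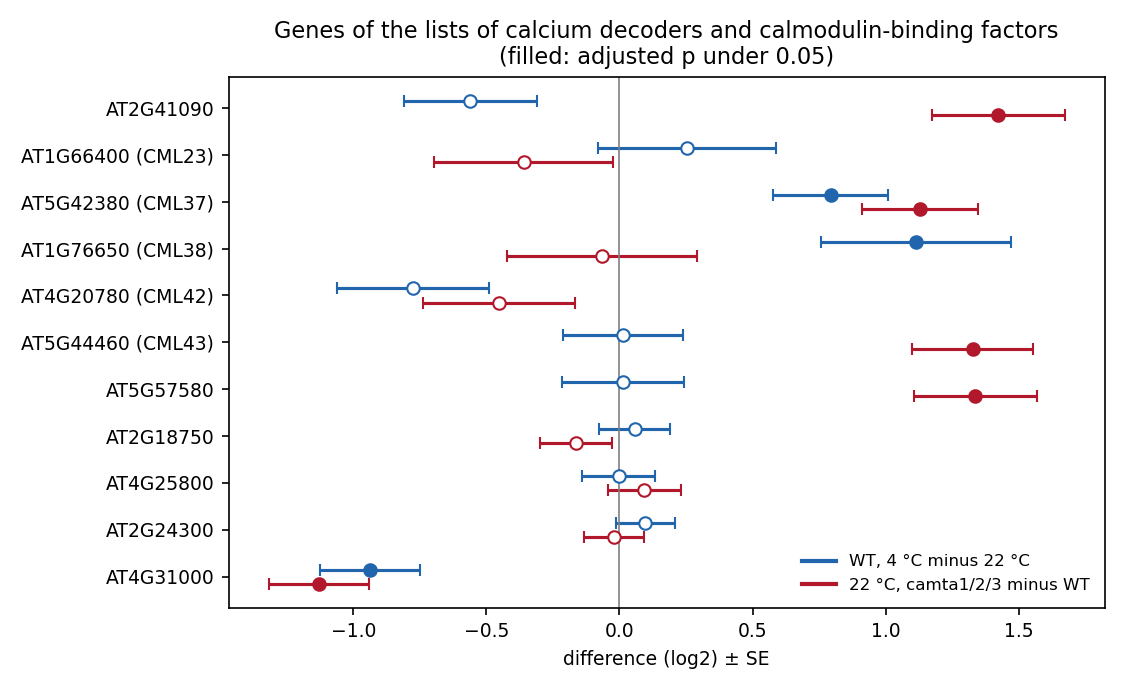
Log2 differences ± SE (x axis) of the 11 measured genes of the lists of calcium decoders and calmodulin-binding factors (y axis), between 4 °C and 22 °C in WT and between camta1/2/3 and WT at 22 °C; filled points had an adjusted p under 0.05. In the warm triple mutant AT2G41090, CML37, CML43 and AT5G57580 stand higher and AT4G31000 lower than in WT.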

How the data were processed

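The authors deposited 1 table with log2 levels of 22810 probe sets on 21 arrays. GCRMA and limma are named, without versions, in the submitters' processing notes. These log2 levels entered the tests unchanged and unfiltered, and columns were matched to samples by name. The 64 control probe sets were left out, and 22746 were tested. Names came from the platform annotation, which lists 14016 probe sets, 13513 with 1 gene, 503 with several genes or no single gene identifier. Of the 13513, 13436 were matched to the RefSeq annotation (assembly TAIR10.1), and the 8794 probe sets that the table does not list, controls included, stayed unnamed. No probe sequences or coordinates were used.

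With limma 3.58.1 in R 4.3.3, all arrays were fitted by 1 linear model with a mean for each of the 7 groups (lmFit and eBayes, 14 residual and 0.954 prior degrees of freedom). Of the 12 comparisons 8 were planned and 4 added after the data were seen. Tests were two-sided, with Benjamini-Hochberg adjustment over all probe sets and a threshold of 0.05. The members, lists and rules were chosen with earlier results of these data known. The named genes were the members, the 3 genes with the highest Pearson correlation with each over the arrays, and up to 4 called genes of each list with the largest differences in cold WT and in the warm triple mutant, a listed gene being given by its probe set with the highest mean. The alternatives were quantile normalization, median centring, a filter, trended and robust variances, a replicate block, the actin covariate, only the arrays compared, and leaving out each array. The fit was tested on simulated data. The number of arrays, 3 a group, limits the precision.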

Additional observations from a re-analysis of the deposited data

How the results depend on the processing

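Of 510 values of the 3 genes recomputed under alternatives, 477 kept their direction and their side of the threshold. The filter, the trended variances, the replicate block and the fits of only the arrays compared cannot change a difference, so direction was fixed there. With all arrays 6 of the 36 results were called, so many of the 477 are results that stayed without a call. The rises of AT1G67310 in the warm triple mutant over WT, camta1/2 and camta1/3, and of AT3G16940 in cold WT, kept their calls under every alternative run, and that of AT1G67310 in cold WT under all but 1. Of 63 same-numbered pairs of arrays from different groups 27 had residual correlations over 0.1. Their median was 0.083, against −0.040 for differently numbered pairs, and 16 of 21 arrays were closest to one of their own number. The replicate numbers thus went with some shared spread. The labels do not say what the numbers mark, so they entered as an alternative only. With a replicate block no call of the 3 genes changed. Each group holds every replicate number once, so the block can change the spread and the p-values but not the differences. AT1G67310 in cold WT had an adjusted p of 0.000343 (limma), and 5575 probe sets were called there in place of 5250.

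With only the arrays compared, AT1G67310 lost its call in cold WT (1.18) and gained one in camta2/3 (0.52), and AT3G16940 gained one in the warm triple mutant over WT (0.47) and against cold WT (−0.43) and lost one over camta1/2 (0.60). That setting had fewer arrays in the fit and estimated the spread from them alone. The probe sets called in it were fewer, for a cause that was not tested. They were 3131 in cold WT (5250 with all arrays), 2447 in the cold triple mutant (5053), 188 in the interaction (447), 2014 between the genotypes at 4 °C (4800) and 3252 at 22 °C (5342). They were 0 in camta1/2 (37), 1 in camta1/3 (502) and 1262 in camta2/3 (2301), and 1653, 481 and 59 for the triple mutant against camta1/2 (3533), camta1/3 (2177) and camta2/3 (326). In camta1/2 against WT 68 were called with quantile normalization, 56 with median centring, 147 with the filter at a group mean of 4 and 64 with trended and robust variances. Between the triple mutant and camta2/3 492 were called with quantile normalization.

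The actin covariate gave AT3G16940 0.71 in the warm triple mutant over WT and 0.51 over camta1/3, both called. Without a call, it turned AT3G16940 to 0.16 and AT4G16150 to 0.062 between the genotypes at 4 °C, and AT4G16150 to 0.019 against camta2/3 and 0.043 against cold WT. It left 2692 probe sets called between the genotypes at 4 °C. AT3G16940 over camta1/2 was 0.56 with quantile normalization, without a call, and −0.52 against cold WT with median centring, with one. The difference of AT1G67310 between the warm triple mutant and cold WT, 0.01, became −0.029 with quantile normalization, −0.083 with median centring, −0.11 with the actin covariate and −0.04 without replicate 2 of camta1/2/3 at both temperatures, the last chosen after seeing the data. The causes of these changes were not tested.

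Leaving out 1 array at a time, or replicate 2 of camta1/2/3 at both temperatures, moved that difference between −0.26 and 0.31, and that of AT4G16150 between −0.16 and 0.085. The cold response of AT4G16150 in WT ran from 0.11 to 0.35, the cold response of AT3G16940 in the triple mutant from −0.013 to 0.445, and the interaction of AT1G67310 from −1.01 to −0.44. At 4 °C AT1G67310 ran from 0.18 to 0.75 and AT4G16150 from −0.16 to 0.085 between the genotypes. AT3G16940 ran from −0.035 to 0.275 in camta1/3 and from 0.50 to 0.74 for the triple mutant over camta1/2. The probe sets called ran from 275 to 555 in the interaction, with the lowest count without WT replicate 2 at 22 °C. They ran from 7 to 279 in camta1/2, 169 to 718 in camta1/3 and 1485 to 2314 in camta2/3, and from 1437 to 1926 and 123 to 375 for the triple mutant against camta1/3 and camta2/3. Of the 3 closest genes 1 remained for AT3G16940 with quantile normalization. Precision is limited by 3 arrays a group.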
